A study of Homo sapiens with 30 samples.

Results

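Polyamine metabolism genes were followed through a set of neuroblastoma cell lines treated with antisense oligonucleotides (ASOs). The set holds 10 genes listed by name, with no threshold on a measured value: ODC1, AMD1, SRM and SMS for synthesis, OAZ1, OAZ2 and AZIN1 for the control of ODC1, and SAT1, SMOX and PAOX for breakdown. The genes were chosen with earlier results of these data known. All 10 were matched to 1 gene ID each, of 68608 gene IDs in the 3 tables. RNA was sequenced from IMR32, SK-N-BE(2)c and NGP, established neuroblastoma lines, after lipofection with 100 nM of an ASO. The ASOs were directed at NESPR, a long non-coding RNA, or were a negative control (NCA). IMR32 received ASO1, ASO2 or NCA, with 4 libraries in each group. The other lines received ASO2, ASO10 or NCA, with 3 libraries in each group. All groups, controls included, were transfected, and no untransfected group was analysed here. The time from transfection to harvest is not given in the sources used here. No row was read as NESPR itself, and the extent of its loss was not analysed here.

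Putrescine, spermidine and spermine are small polycations that bind RNA and other acidic molecules and are needed for translation and growth. ODC1 makes putrescine from ornithine, AMD1 supplies the aminopropyl donor, and SRM and SMS use it to build spermidine and spermine. SAT1, SMOX and PAOX run the reverse path, while antizymes mark ODC1 for degradation and antizyme inhibitor protects it. ODC1 is a known target of MYCN, the oncogene amplified in many neuroblastomas, and its inhibitor difluoromethylornithine has been used against this tumour.

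The values are gene counts divided by a size factor per library, called normalized counts here. IMR32 libraries held 9393587 to 13932379 reads, NGP libraries 11591178 to 13795561 and SK-N-BE(2)c libraries 11497829 to 15060356. The SK-N-BE(2)c and NGP tables were scaled together and IMR32 apart, so levels were compared between those lines only. Markers of adrenergic neuroblastoma were present in every group (mean normalized count of HAND2 3956 to 12764, of GATA3 1959 to 3669). TH was low in IMR32 (24.6 to 31.1). Of the other markers, PTPRC, CD3E, HBB, KRT18, CDH1, PRRX1 and COL1A2 stayed at group means of 4.70 or less, whereas TWIST1 (566 to 2036), FN1 (3.18 to 497), COL1A1 (6.41 to 889.7) and EPCAM (1.65 to 23.01) varied between lines and with the ASO. EPCAM averaged 8.85 with NCA, 7.13 with ASO2 and 23.01 with ASO10 in NGP, and 1.65, 3.25 and 7.63 in SK-N-BE(2)c. COL1A1 averaged 8.67, 19.8 and 6.41 in SK-N-BE(2)c, 165, 234 and 141 in NGP, and 682 with NCA, 719 with ASO1 and 889.7 with ASO2 in IMR32. The mean of TWIST1 was below that of NCA in all 6 ASO groups, and so were those of the adrenergic markers HAND2 and PHOX2A. The other adrenergic markers, GATA3, ISL1, TH, DBH and CHGA, had ASO means on both sides of NCA. The part of these markers in the results below was not tested. The labels number libraries within a group without saying whether cultures were separate, so p-values measure only the spread between libraries. Replicate 1 of the control in SK-N-BE(2)c and in NGP has a differently spelled column name from replicates 2 and 3, and the labels do not settle whether another control oligonucleotide is meant.

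With ASO2, 7 of the 9 tested genes were higher in all 3 lines: ODC1, AMD1, OAZ1, OAZ2, AZIN1, SAT1 and SMOX. The IMR32 calls of OAZ1, AZIN1 and SMOX among these were lost in some fits that left out 1 library. That of AMD1 in SK-N-BE(2)c was lost after libraries were rescaled to equal totals (log2 fold change 0.13, limma adjusted p 0.109). How large a share of all genes was called higher with ASO2 in every line was not computed. AMD1 was lower with ASO10 in both lines that received it, and SRM was slightly lower with either ASO in SK-N-BE(2)c and NGP. Calls required an adjusted p from limma below 0.05, computed over all genes with a mean of 10 or more, and each fold change was taken on log2(value + 1). PAOX fell below that filter in every line, so 9 of the 10 genes were tested. In IMR32, 4 of the 9 were called with ASO1, all higher, beside 28% of all tested genes (13.6% higher), and the median log2 fold change of the 9 was 0.12 against 0.00 over all genes. With ASO2 in IMR32, 7 were called, all higher, beside 32.4% (17.6% higher, median 0.25 against 0.00). In NGP, ASO2 moved all 9 tested genes, 8 higher and 1 lower, beside 58.7% of all genes (30.6% higher, median 0.48 against 0.01). ASO10 in NGP moved 6, with 4 higher and 2 lower, beside 54.4% (26.8% higher, median 0.09 against -0.03). In SK-N-BE(2)c, ASO2 moved all 9, again 8 higher and 1 lower, beside 67% (33.6% higher, median 0.48 against -0.02), and ASO10 moved 7, with 4 higher and 3 lower, beside 58.9% (27.8% higher, median 0.12 against -0.03). Calls were therefore common among all genes of the last 2 lines, and most changes of the set were under 1.5-fold. A fold of at least 1.5 was reached by 1 gene with ASO1 and 1 with ASO2 in IMR32 (5.28% and 5.1% of all genes), by 4 and 3 genes with ASO2 and ASO10 in NGP (26.5% and 24.6%), and by 4 and 1 in SK-N-BE(2)c (34.2% and 25.1%). Both ASO groups of a line are compared with the same control libraries, so their effects against NCA are not independent of each other.

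**Figure D1:**
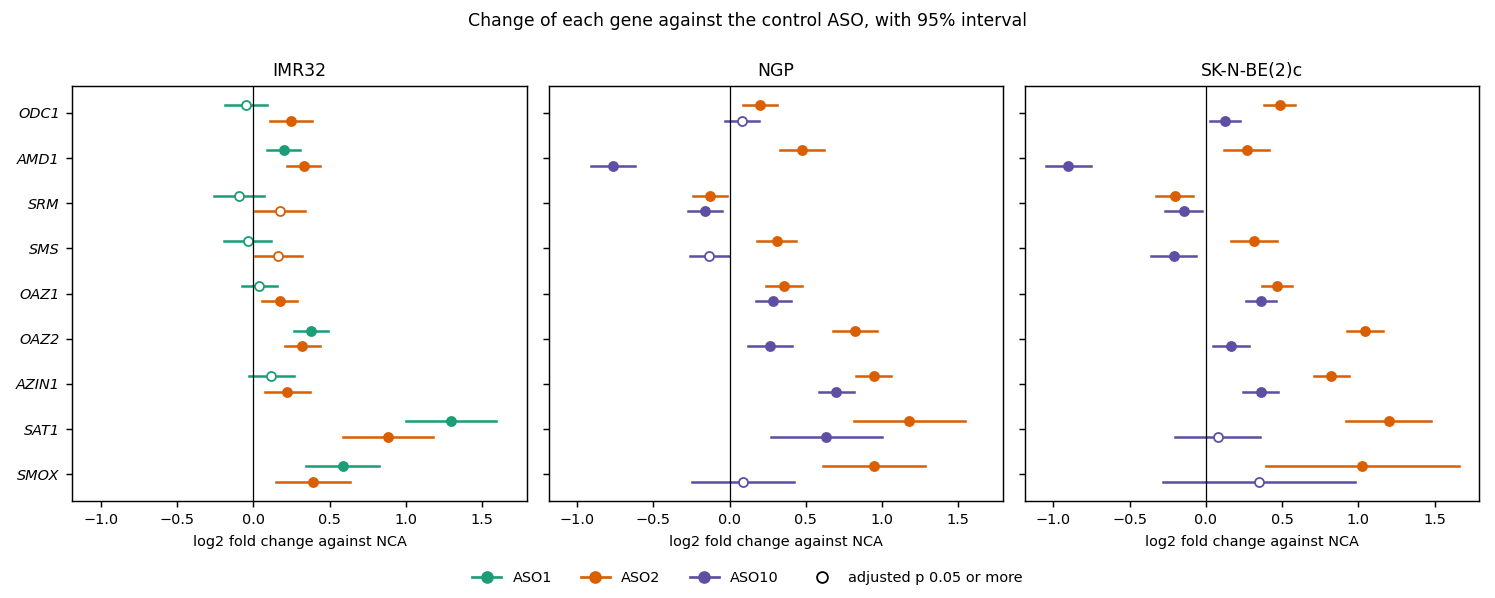
Log2 fold change against NCA (x axis) of the 9 tested genes (y axis), with a panel for each line. Points are limma estimates, bars are 95% intervals, and open points have an adjusted p of 0.05 or more. OAZ2 lies right of 0 in all 6 comparisons, and AMD1 lies left of 0 with ASO10 only.

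ODC1 (ENSG00000115758), the enzyme that commits ornithine to polyamines, rose with ASO2 in every line and changed little with the other ASOs. In IMR32 its normalized counts were 4669.6, 3946, 3997 and 4073 with NCA, 4567, 3794, 3867 and 3897 with ASO1 and 5463, 4825, 4604 and 4893 with ASO2. The first library is the highest of each group, and the ASO2 and NCA groups overlap only through the first NCA library. ASO2 gave a log2 fold change of 0.25 ± 0.07 (adjusted p 0.00661), where ± is the standard error here and below, and ASO1 gave -0.05 ± 0.07 (adjusted p 0.616). In NGP the counts were 7051, 6908 and 7129.7 with NCA, 8402, 8364 and 7516 with ASO2 and 6839, 7432 and 8053 with ASO10. All ASO2 libraries were above all NCA libraries, and the ASO10 libraries fell on both sides of them. The log2 fold change was 0.20 ± 0.05 (adjusted p 0.00265) with ASO2, and with ASO10 it was 0.08 ± 0.05 (adjusted p 0.227). Counts in SK-N-BE(2)c were 6926, 7364 and 7614 with NCA, 9901, 10237 and 10478 with ASO2 and 7737, 7902 and 8233 with ASO10. The 3 groups did not overlap, with ASO2 on top. ASO2 raised ODC1 by 0.48 ± 0.05 (adjusted p 1.19e-09) and ASO10 by 0.12 ± 0.05 (adjusted p 0.0306). The ASO10 call was lost without ASO10 replicate 3 (log2 fold change 0.10, adjusted p 0.157), NCA replicate 1 (0.09, 0.151) or NCA replicate 2 (0.13, 0.0565), without the filter on low values (adjusted p 0.078) and after rescaling to equal totals (0.0767). In these bulk samples a change in RNA per cell cannot be told apart from a change in the share of cells that make it.

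ODC1 carries a pair of CACGTG elements, the E-box that MYC-family proteins are known to bind, downstream of its first listed start site. They are shown because MYCN is the textbook regulator of this gene. The windows are read from RefSeq promoters (GRCh38.p14) 5′ to 3′ on the minus strand, at chr2:10448024-10448053 and chr2:10447990-10448019, with the E-box in capitals, 286 and 320 bases after that start.
ODC1 E-box 1: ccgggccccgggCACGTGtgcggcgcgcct
ODC1 E-box 2: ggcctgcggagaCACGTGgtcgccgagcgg
The submitters' processing notes name GRCh37, so these positions are not in the build of the counts. A match of letters is a description and not a measured binding site.

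**Figure D2:**
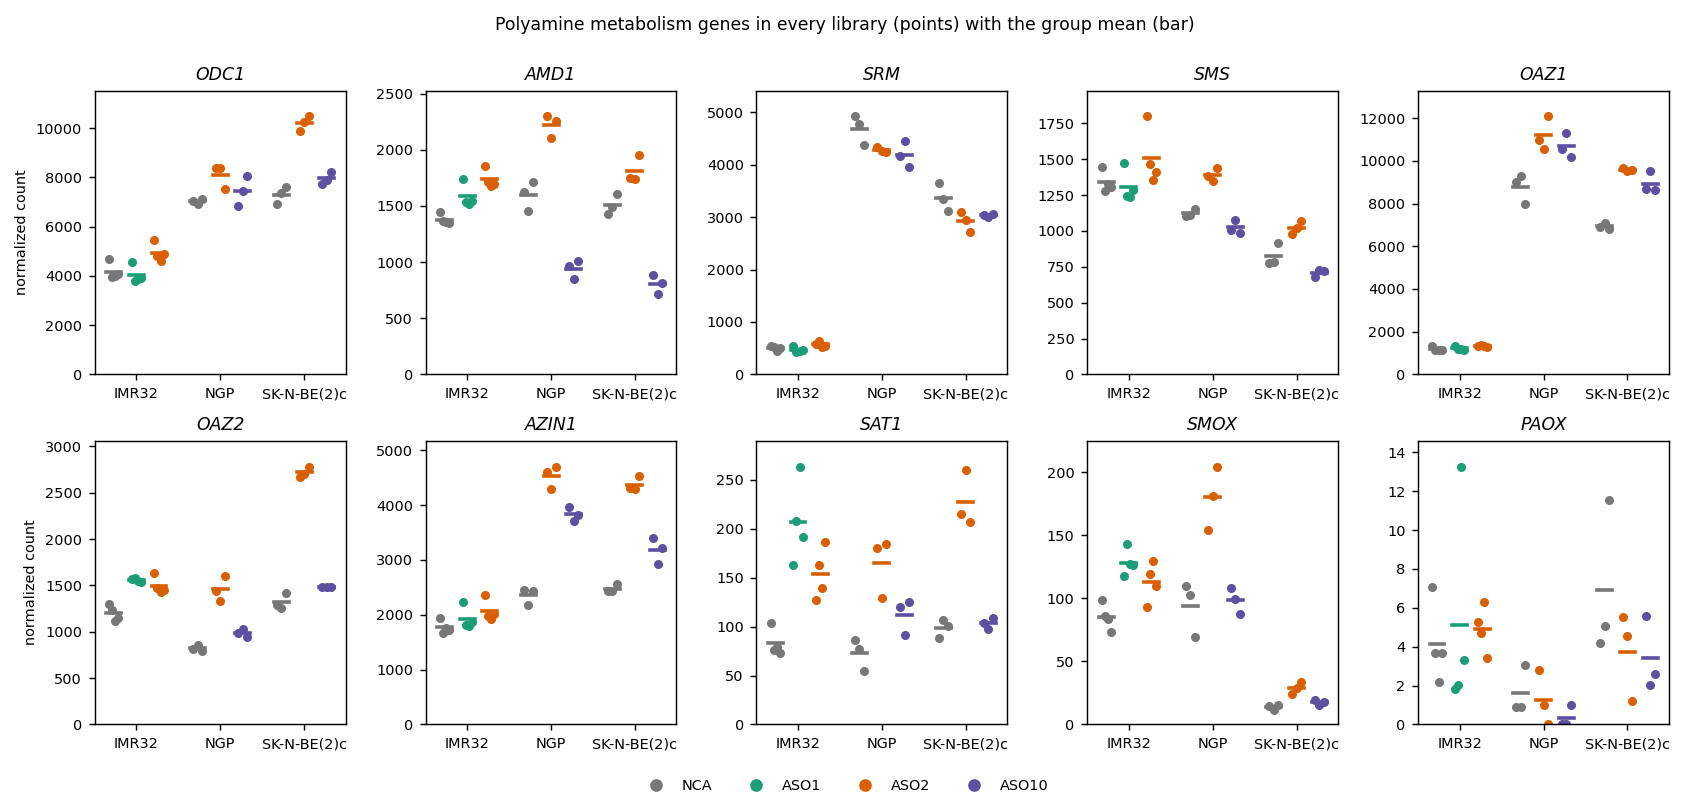
Normalized count (y axis, from 0) of each of the 10 genes in every library, by line and ASO, with bars at group means. IMR32 was scaled apart from the other lines, so its heights are not comparable with theirs. AMD1 with ASO10 sits between 719 and 1011, under the NCA and ASO2 libraries of the same line.

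AMD1 (ENSG00000123505), S-adenosylmethionine decarboxylase, moved in opposite directions with ASO2 and ASO10. In NGP its normalized counts were 1626, 1451 and 1713 with NCA, 2296, 2103 and 2253 with ASO2 and 964, 844 and 1011 with ASO10. The SK-N-BE(2)c counts were 1426, 1490.1 and 1602 with NCA, 1750.2, 1739.5 and 1951 with ASO2 and 887, 719 and 813 with ASO10. In both lines every ASO2 library lay above, and every ASO10 library below, all NCA libraries. The fall with ASO10 was -0.76 ± 0.07 (adjusted p 1.63e-09) in NGP and -0.90 ± 0.07 (adjusted p 1.74e-11) in SK-N-BE(2)c, and it did not differ detectably between the lines (difference 0.14 ± 0.11, adjusted p 0.424). The rise with ASO2 was 0.48 ± 0.07 (adjusted p 3e-06) in NGP and 0.27 ± 0.07 (adjusted p 0.00178) in SK-N-BE(2)c. The latter rise was not called once all libraries were rescaled to equal totals (log2 fold change 0.13, adjusted p 0.109), a scaling that shifted the median of all genes in this comparison by -0.14. Tested directly against each other, ASO2 exceeded ASO10 by 1.24 ± 0.07 (adjusted p 1.71e-13) in NGP and 1.17 ± 0.07 (adjusted p 4.43e-14) in SK-N-BE(2)c. In IMR32 the counts were 1445, 1367, 1353 and 1348 with NCA, 1740.3, 1538, 1515 and 1544 with ASO1 and 1857, 1714, 1675 and 1697 with ASO2. Both ASO groups were entirely above the control, by 0.20 ± 0.05 (adjusted p 0.00642) and 0.33 ± 0.05 (adjusted p 7.62e-05).

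AMD1 mRNA holds a very short upstream reading frame through which polyamines are known to restrain its translation. It is shown with start and stop codons in capitals because AMD1 had the largest change of the synthesis genes with ASO10. The frame has 7 codons, stop included, and lies at chr6:110874796-110874816 on the plus strand (GRCh38.p14, RefSeq), beginning 11 bases after the transcription start.
AMD1 upstream frame: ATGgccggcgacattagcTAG
The 250 bases before that start (chr6:110874535-110874784, plus strand) hold 1 GC box, GGGCGG on either strand, in capitals next to a TA-rich stretch. GGGCGG occurs in 42.6% of 35093 promoter windows of this length.
AMD1 promoter: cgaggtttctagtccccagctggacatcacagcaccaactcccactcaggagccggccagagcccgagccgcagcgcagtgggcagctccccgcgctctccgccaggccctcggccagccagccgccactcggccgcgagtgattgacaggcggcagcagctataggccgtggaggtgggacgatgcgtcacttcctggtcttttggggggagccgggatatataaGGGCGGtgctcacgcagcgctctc
Counts of RNA do not read translation through the upstream frame.

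SRM (ENSG00000116649), spermidine synthase, was the only tested gene of the set that was lower with ASO2 in SK-N-BE(2)c and NGP. In NGP its normalized counts were 4923, 4782 and 4369 with NCA, 4335, 4269 and 4251 with ASO2 and 4173, 4464 and 3953 with ASO10. All ASO2 libraries were below all NCA libraries, and 1 ASO10 library overlapped them. The log2 fold changes were -0.13 ± 0.05 (adjusted p 0.042) and -0.16 ± 0.05 (adjusted p 0.0137). The ASO2 call in NGP was lost when ASO2 replicate 1, 2 or 3, ASO10 replicate 1, or NCA replicate 1 or 2 was left out (log2 fold change -0.14 to -0.09, adjusted p 0.0576 to 0.206), and the ASO10 call without ASO10 replicate 3 (-0.12, 0.0904) or NCA replicate 1 (-0.13, 0.0943). The ASO2 call in NGP was also lost without the filter on low values (adjusted p 0.105). The counts of SRM in SK-N-BE(2)c were 3649, 3343 and 3118 with NCA, 3106, 2955 and 2716 with ASO2 and 3048, 3009 and 3058 with ASO10. Both ASO groups lay under the control, by -0.20 ± 0.06 (adjusted p 0.00362) and -0.15 ± 0.06 (adjusted p 0.0353). The ASO10 call there was lost in edgeR (adjusted p 0.0749) and DESeq2 (0.123), without the filter on low values (limma adjusted p 0.072), and without any ASO10 library or NCA replicate 1 or 2 (log2 fold change -0.15 to -0.09, adjusted p 0.0588 to 0.228). In IMR32 the counts were 543, 523, 452 and 499.8 with NCA, 550.3, 426, 446 and 469 with ASO1 and 584, 632, 528 and 539 with ASO2. These 3 groups overlapped. The log2 fold changes were -0.10 ± 0.08 (adjusted p 0.397) and 0.18 ± 0.08 (adjusted p 0.0903), and the latter became a call only when ASO1 replicate 1 was left out (0.18, adjusted p 0.0414), among single libraries.

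SRM has a CACGTG element 199 bases before its start, in capitals below, an element present in 6.34% of promoter windows. It is shown beside the ODC1 windows as the same letters in another synthesis gene. That of SRM lies before its start, and those of ODC1 lie after the first listed start. E-box 1 of ODC1 lies 29 bases before a second listed start of that gene. The part of the element in the changes of either gene was not tested. The 250 bases run 5′ to 3′ on the minus strand at chr1:11060019-11060268 (GRCh38.p14, RefSeq).
SRM promoter: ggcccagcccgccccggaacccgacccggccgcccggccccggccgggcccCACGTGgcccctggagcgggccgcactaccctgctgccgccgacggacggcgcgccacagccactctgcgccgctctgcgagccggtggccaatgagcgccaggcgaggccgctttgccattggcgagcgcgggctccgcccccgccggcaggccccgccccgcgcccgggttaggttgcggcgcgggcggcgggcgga
Motifs were read on both strands, and none of the 3 other promoters printed here holds CACGTG.

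SMS (ENSG00000102172), spermine synthase, had estimates of the same sign as AMD1 in SK-N-BE(2)c and NGP, higher with ASO2 and lower with ASO10. In NGP its normalized counts were 1106, 1109 and 1152 with NCA, 1383, 1349 and 1442 with ASO2 and 1009.8, 1079 and 984 with ASO10. For SK-N-BE(2)c they were 773, 780.4 and 916 with NCA, 978, 1022 and 1067 with ASO2 and 679, 728 and 719 with ASO10. ASO2 libraries were above and ASO10 libraries below every control in both lines. The rise with ASO2 was 0.31 ± 0.06 (adjusted p 0.000133) in NGP and 0.32 ± 0.07 (adjusted p 0.000392) in SK-N-BE(2)c. With ASO10 the log2 fold change was -0.13 ± 0.06 (adjusted p 0.0725) in NGP, which passed only without ASO10 replicate 2 (-0.17, adjusted p 0.042), and -0.21 ± 0.07 (adjusted p 0.0142) in SK-N-BE(2)c, which failed without ASO10 replicate 1 (-0.18, 0.0565) or NCA replicate 3 (-0.13, 0.13). In IMR32 the counts were 1446, 1282, 1326 and 1308 with NCA, 1473, 1243, 1235 and 1288 with ASO1 and 1799, 1469.9, 1355 and 1415 with ASO2. The groups overlapped, and the log2 fold changes were -0.04 ± 0.07 (adjusted p 0.764) and 0.16 ± 0.07 (adjusted p 0.0959). Without ASO2 replicate 3 the latter was 0.21 (adjusted p 0.0394).

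OAZ2 (ENSG00000180304), an antizyme, was the only gene of the set called higher in all 6 comparisons with NCA. In IMR32 its normalized counts were 1299, 1237, 1111 and 1150.2 with NCA, 1566, 1576, 1545 and 1539.7 with ASO1 and 1634, 1477, 1427 and 1452 with ASO2. In NGP they were 816, 862 and 788 with NCA, 1435, 1333 and 1604 with ASO2 and 987, 1035 and 939 with ASO10. Those of SK-N-BE(2)c were 1290.2, 1259 and 1419 with NCA, 2675, 2707 and 2783 with ASO2 and 1479.6, 1482 and 1481 with ASO10. No ASO library overlapped the controls of its line. The log2 fold changes in IMR32 were 0.38 ± 0.05 (adjusted p 2.46e-05) with ASO1 and 0.32 ± 0.05 (adjusted p 0.000164) with ASO2. In NGP they were 0.82 ± 0.07 (adjusted p 4.14e-10) with ASO2 and 0.26 ± 0.07 (adjusted p 0.00289) with ASO10. The SK-N-BE(2)c values were 1.04 ± 0.06 (adjusted p 6.72e-15) and 0.16 ± 0.06 (adjusted p 0.0162), and the latter fell short without NCA replicate 2 (0.13, adjusted p 0.0967). The level with ASO2 in SK-N-BE(2)c was 2.06 times that of the control on the value + 1 scale. ASO2 exceeded ASO10 by 0.56 ± 0.07 (adjusted p 2.41e-07) in NGP and 0.88 ± 0.06 (adjusted p 1.99e-13) in SK-N-BE(2)c. The share of all genes called higher in all 6 comparisons was not computed.

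OAZ1 (ENSG00000104904), the antizyme with the higher level per kilobase in SK-N-BE(2)c and NGP, rose less than OAZ2 in the estimates with ASO2. In NGP its normalized counts were 9019, 9291 and 7973 with NCA, 10976, 10551 and 12079 with ASO2 and 10558, 11294 and 10180.5 with ASO10. For SK-N-BE(2)c they were 6915, 7089 and 6807 with NCA, 9643, 9539 and 9564 with ASO2 and 8678, 9506 and 8616 with ASO10. All ASO libraries of both lines were above their controls. The rises were 0.36 ± 0.06 (adjusted p 7.85e-06) and 0.29 ± 0.06 (adjusted p 0.000135) in NGP, and 0.47 ± 0.05 (adjusted p 1.85e-09) and 0.36 ± 0.05 (adjusted p 2.73e-07) in SK-N-BE(2)c. In IMR32 the counts were 1307, 1147, 1133 and 1134 with NCA, 1317, 1205, 1192 and 1135 with ASO1 and 1349, 1366, 1323 and 1276 with ASO2, and the first NCA library reached into both ASO groups. ASO2 gave 0.17 ± 0.06 (adjusted p 0.022), a call that was lost without ASO2 replicate 2 or NCA replicate 2, 3 or 4 (log2 fold change 0.15 to 0.16, adjusted p 0.0654 to 0.0722). ASO1 gave 0.04 ± 0.06 (adjusted p 0.648).

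Antizyme proteins are made only when ribosomes slip by 1 base at an in-frame stop codon, a step that polyamines are known to promote. The site is shown for both antizymes, with the stop codon in capitals, because they share it while the estimates of their RNA differed with ASO2. Each is 30 bases of the mRNA, 5′ to 3′, from GENCODE 29 transcripts.
OAZ1 shift site: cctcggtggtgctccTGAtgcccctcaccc
OAZ2 shift site: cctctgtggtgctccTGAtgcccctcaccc
The sites share 29 of 30 bases. The OAZ2 promoter (chr15:64703282-64703531, minus strand, GRCh38.p14, RefSeq) is shown as that of the gene called in all 6 comparisons, with its GC box 68 bases before the start in capitals.
OAZ2 promoter: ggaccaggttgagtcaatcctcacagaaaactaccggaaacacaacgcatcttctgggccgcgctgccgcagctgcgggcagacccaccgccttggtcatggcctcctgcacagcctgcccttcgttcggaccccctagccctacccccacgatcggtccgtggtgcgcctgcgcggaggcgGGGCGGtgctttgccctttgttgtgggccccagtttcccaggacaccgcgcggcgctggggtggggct
Antisense genes overlap OAZ2 and reached at most 71.99 normalized counts in any library, against at least 788 for OAZ2, and whether the counting used strand is not given in the sources used here.

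AZIN1 (ENSG00000155096), the antizyme inhibitor that frees ODC1 from antizyme, rose with both ASOs in SK-N-BE(2)c and NGP. In NGP its normalized counts were 2449, 2183 and 2439.8 with NCA, 4604, 4298 and 4701 with ASO2 and 3963, 3708 and 3815 with ASO10. SK-N-BE(2)c libraries had 2435, 2428 and 2554 with NCA, 4305, 4292 and 4522 with ASO2 and 3394, 2926 and 3215 with ASO10. The groups were ordered NCA, ASO10, ASO2 without overlap in both lines. The rises were 0.94 ± 0.05 (adjusted p 4.2e-13) and 0.70 ± 0.05 (adjusted p 7.95e-11) in NGP, and 0.82 ± 0.06 (adjusted p 3.68e-13) and 0.36 ± 0.06 (adjusted p 3.09e-06) in SK-N-BE(2)c. The ASO10 effect was larger in NGP than in SK-N-BE(2)c, with a difference of 0.34 ± 0.08 (adjusted p 0.00464), while the ASO2 effects did not differ detectably (0.12 ± 0.08, adjusted p 0.317). AZIN1 was the only gene of the set called for the ASO10 difference, beside 16.9% of all genes. In IMR32 the counts were 1944, 1669, 1754 and 1725 with NCA, 2226, 1815, 1803 and 1868 with ASO1 and 2366, 1978, 1929 and 2008 with ASO2. The first library was again the highest of each group and the control's reached into both ASO groups. ASO1 gave 0.12 ± 0.07 (adjusted p 0.236) and ASO2 gave 0.22 ± 0.07 (adjusted p 0.0209), a call lost without ASO2 replicate 1 (0.16, adjusted p 0.0772), NCA replicate 2 (0.19, 0.0743) or NCA replicate 4 (0.21, 0.0575).

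SAT1 (ENSG00000130066), the acetyltransferase that opens polyamine breakdown and export, had the largest fold change of the set in IMR32 and with ASO2 in the other lines. In IMR32 its normalized counts were 104, 76.5, 79.1 and 72.6 with NCA, 163, 208, 264 and 191 with ASO1 and 127, 163, 139 and 186 with ASO2. No ASO library overlapped the controls. Both ASOs raised it, by 1.30 ± 0.14 (adjusted p 9.2e-07) and 0.88 ± 0.14 (adjusted p 0.000101). Replicate 1 was the lowest of both ASO groups and the highest of the controls, and without replicate 1 of every group, a choice made after seeing the data, the values were 1.51 and 1.08. In NGP the counts were 86.5, 77.1 and 54.4 with NCA, 180.1, 129 and 185 with ASO2 and 120.2, 91.3 and 125 with ASO10, in groups that did not overlap. The rises were 1.18 ± 0.18 (adjusted p 3.39e-06) and 0.63 ± 0.18 (adjusted p 0.00394). SK-N-BE(2)c libraries had 87.9, 107 and 100.2 with NCA, 215, 260.2 and 206 with ASO2 and 104, 97.2 and 109 with ASO10. ASO2 libraries stood clear of both other groups, which overlapped. ASO2 raised SAT1 by 1.20 ± 0.14 (adjusted p 8.78e-09), and ASO10 gave 0.08 ± 0.14 (adjusted p 0.647) with a 95% interval of -0.20 to 0.35. The ASO10 effect was not shown to differ between SK-N-BE(2)c and NGP (0.56 ± 0.25, adjusted p 0.126).

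The SAT1 promoter is shown as that of the gene with the highest fold change with ASO2, with its CCAAT boxes 79 (on the other strand) and 13 bases before the start in capitals. CCAAT was found in 32% of promoter windows. The bases run 5′ to 3′ on the plus strand at chrX:23782923-23783172 (GRCh38.p14, RefSeq).
SAT1 promoter: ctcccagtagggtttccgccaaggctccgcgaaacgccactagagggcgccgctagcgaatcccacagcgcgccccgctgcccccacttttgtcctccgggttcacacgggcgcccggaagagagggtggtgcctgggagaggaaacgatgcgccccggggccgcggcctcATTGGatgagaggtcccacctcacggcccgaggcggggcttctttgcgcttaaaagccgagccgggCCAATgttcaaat
The exact letters TATAAA, found in 10.7% of all windows, were in none of those of the 7 matched genes. The AMD1 promoter printed above has tatataa beside its GC box, which an exact search for TATAAA does not match.

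SMOX (ENSG00000088826), spermine oxidase, which turns spermine back to spermidine and releases hydrogen peroxide, rose with ASO1 and ASO2. In IMR32 its normalized counts were 99.1, 86.3, 83.5 and 73.5 with NCA, 118, 143, 127 and 126 with ASO1 and 92.97, 119.6, 129 and 109.7 with ASO2. All ASO1 libraries exceeded the controls, and 1 ASO2 library fell among them. The log2 fold changes were 0.58 ± 0.12 (adjusted p 0.00069) and 0.39 ± 0.12 (adjusted p 0.013), and the ASO2 call was lost without ASO2 replicate 3 (0.32, adjusted p 0.05) or NCA replicate 4 (0.32, 0.0554). In NGP the counts were 110.2, 103 and 69.7 with NCA, 154, 182 and 205 with ASO2 and 108, 99.9 and 87.8 with ASO10. ASO2 stood apart, with 0.95 ± 0.16 (adjusted p 2.1e-05), and ASO10 overlapped the control, with 0.09 ± 0.16 (adjusted p 0.676). In SK-N-BE(2)c the gene was near the filter, at 14.6, 11.1 and 15.4 with NCA, 24.3, 29.01 and 33.6 with ASO2 and 19.5, 15.3 and 18.1 with ASO10. ASO2 raised it by 1.03 ± 0.31 (adjusted p 0.00458). ASO10 gave 0.35 ± 0.31 (adjusted p 0.344), with a 95% interval of -0.28 to 0.98 that leaves its direction undetermined at this depth.

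PAOX (ENSG00000148832), the oxidase that acts on acetylated polyamines, was barely detected. Its normalized counts were 7.08, 3.70, 2.20 and 3.67 with NCA, 1.83, 2.04, 13.3 and 3.34 with ASO1 and 5.26, 4.71, 6.29 and 3.43 with ASO2 in IMR32. In NGP no library had more than 3 reads of it, and in SK-N-BE(2)c the highest had 12. In IMR32 a coding gene that overlaps it on the same strand, AL360181.3, reached 42.9, and reads from the shared stretch cannot be told apart. At this depth a change in PAOX was not detectable.

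ASO2 and ASO10 were compared directly in the lines that received both. ASO2 exceeded ASO10 for 6 of the 9 tested genes in NGP, beside 58.6% of all genes (30.6% higher with ASO2), and for 6 in SK-N-BE(2)c, beside 65.4% (34.6% higher), and no gene was called lower with ASO2. With a fold of at least 1.5 there were 2 genes in NGP (28.3% of all genes) and 3 in SK-N-BE(2)c (32.1%). AMD1, SMS, OAZ2, AZIN1 and SAT1 were called in both lines. SMS was higher with ASO2 by 0.44 ± 0.06 (adjusted p 1.09e-06) in NGP and 0.53 ± 0.07 (adjusted p 3.41e-07) in SK-N-BE(2)c. AZIN1 differed by 0.24 ± 0.05 (adjusted p 0.000485) and 0.46 ± 0.06 (adjusted p 3.31e-08). SAT1 differed by 0.54 ± 0.18 (adjusted p 0.0104) in NGP, lost without ASO2 replicate 1 (0.47, adjusted p 0.0566), ASO2 replicate 3 (0.45, 0.0636) or ASO10 replicate 2 (0.40, 0.0759), and by 1.12 ± 0.14 (adjusted p 3.22e-08) in SK-N-BE(2)c. SMOX was called in NGP, at 0.86 ± 0.16 (adjusted p 6.67e-05), and not in SK-N-BE(2)c, at 0.68 ± 0.31 (adjusted p 0.0546), where it passed without ASO2 replicate 1 (0.80, 0.0473). ODC1 was called in SK-N-BE(2)c, at 0.36 ± 0.05 (adjusted p 2.89e-07), and not in NGP, at 0.12 ± 0.05 (adjusted p 0.0563), where it passed without ASO2 replicate 3 (0.18, 0.014), ASO10 replicate 3 (0.18, 0.00797), or NCA replicate 2 or 3. OAZ1 and SRM were not called in either line, with 95% intervals in NGP of -0.05 to 0.18 and -0.08 to 0.14 and in SK-N-BE(2)c of 0.00 to 0.20 and -0.18 to 0.06. OAZ1 in SK-N-BE(2)c passed without ASO10 replicate 2 (0.15, adjusted p 0.0122) or NCA replicate 3 (0.10, 0.0489), and SRM there passed after rescaling to equal totals (-0.17, 0.016).

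**Figure D3:**
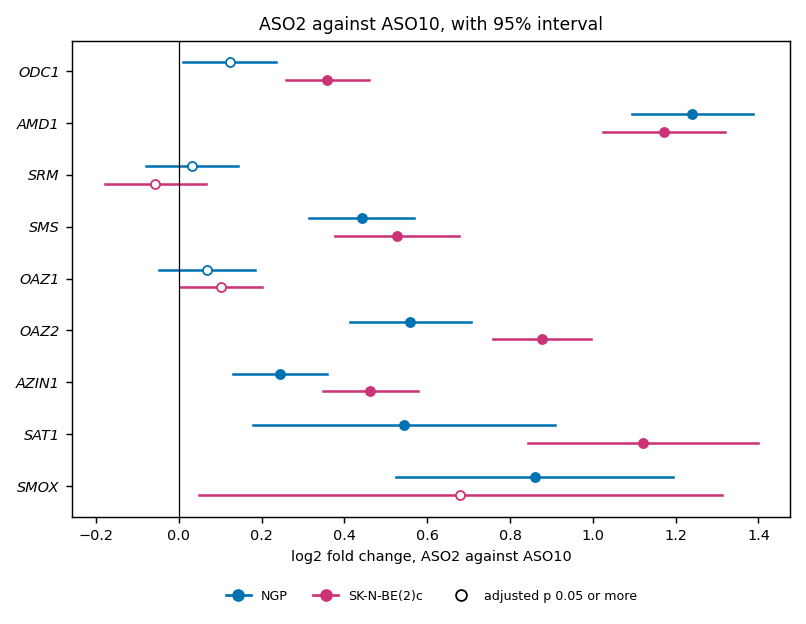
Log2 fold change of ASO2 against ASO10 (x axis) of the 9 tested genes in NGP and SK-N-BE(2)c, with 95% intervals from limma and open points where the adjusted p is 0.05 or more. AMD1 lies farthest from 0 in both lines, at 1.24 and 1.17.

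In IMR32, ASO1 and ASO2 differed for 3 of the 9 genes, beside 21.9% of all genes, and none reached a fold of 1.5 (3.33% of all genes). ODC1 was lower with ASO1 by -0.30 ± 0.07 (adjusted p 0.00253) and SRM by -0.27 ± 0.08 (adjusted p 0.0163), and SAT1 was higher by 0.42 ± 0.14 (adjusted p 0.0403). The SAT1 call was lost without any one of ASO1 replicate 2, 3 or 4 or ASO2 replicate 1, 2 or 3 (log2 fold change 0.29 to 0.45, adjusted p 0.0597 to 0.175), and the SRM call without ASO1 replicate 2 or 3 or ASO2 replicate 2 (-0.25 to -0.22, adjusted p 0.0575 to 0.0726). Without ASO1 replicate 1, 7 genes were called instead, with AMD1 at -0.18, SMS at -0.26, OAZ1 at -0.17 and AZIN1 at -0.17 added.

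Among controls, NGP differed from SK-N-BE(2)c for 6 of the 9 genes, beside 77% of all genes, and by a fold of at least 1.5 for 2 (51%). SMOX differed most, at 2.68 ± 0.21 (adjusted p 3.18e-11) in favour of NGP. SRM was higher in NGP by 0.48 ± 0.06 (adjusted p 8.8e-08), SMS by 0.45 ± 0.06 (adjusted p 7.24e-07) and OAZ1 by 0.33 ± 0.06 (adjusted p 1.19e-05). OAZ2 was lower in NGP, at -0.68 ± 0.06 (adjusted p 4.17e-10), and so was SAT1, at -0.45 ± 0.17 (adjusted p 0.022). The SAT1 call was lost without NGP NCA replicate 3 (-0.26, adjusted p 0.18), SK-N-BE(2)c NCA replicate 2 (-0.39, 0.0782) or SK-N-BE(2)c NCA replicate 3 (-0.44, 0.0515). ODC1 (-0.05 ± 0.05, adjusted p 0.376), AMD1 (0.08 ± 0.08, adjusted p 0.343) and AZIN1 (-0.07 ± 0.06, adjusted p 0.255) were not called. For the ASO2 effect, ODC1 was the only gene of the set called between these lines, beside 16.7% of all genes, with a smaller rise in NGP by -0.28 ± 0.08 (adjusted p 0.0141). OAZ2 reached -0.22 ± 0.09 (adjusted p 0.0915) and was called without NGP ASO2 replicate 3 (-0.29, adjusted p 0.0239) or SK-N-BE(2)c NCA replicate 3 (-0.27, 0.0448). No gene of the set was called with a difference of at least 1.5-fold between the lines in either ASO's effect (5.15% of all genes with ASO2 and 6.09% with ASO10). Some 95% intervals of the ASO10 difference were wide, at 0.05 to 1.07 for SAT1 and -0.88 to 0.36 for SMOX. Differences of that size therefore remain possible for these genes.

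Per kilobase of annotated exon, ODC1, SRM and OAZ1 led the set in SK-N-BE(2)c and NGP controls. In NGP the mean normalized counts per kilobase were 2549.7 for OAZ1, 2472 for SRM and 2368 for ODC1, followed by 519.7 for SMS, 367 for AZIN1, 227 for AMD1 and 107 for OAZ2. The breakdown enzymes came last, with 31.99 for SMOX, 29.1 for SAT1 and 0.71 for PAOX. The order in SK-N-BE(2)c was ODC1 (2460.0), OAZ1 (2019), SRM (1776), AZIN1 (385), SMS (381), AMD1 (214), OAZ2 (172), SAT1 (39.4), SMOX (4.66) and PAOX (3.04). IMR32 began with ODC1 (1405) and SMS (621), ahead of OAZ1 (344), AZIN1 (276) and SRM (266), with AMD1 at 196, OAZ2 at 156, SAT1 at 33.2, SMOX at 29.1 and PAOX at 1.83. The lengths are the merged exons of GENCODE 29, which can exceed the transcripts in use, most of all for the long OAZ2, AMD1 and AZIN1. The libraries' ranges overlapped in NGP among OAZ1, SRM and ODC1 and between SMOX and SAT1, in SK-N-BE(2)c between SMS and AZIN1 and between SMOX and PAOX, and in IMR32 between AZIN1 and SRM and between SAT1 and SMOX, so these neighbours do not differ beyond their spread. The labels name a total RNA kit and an mRNA kit without saying which library had which, and the part of the kit in the differences between lines was not tested.

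Of 25 other genes of the pathway, 21 were tested in IMR32 and NGP, and SK-N-BE(2)c had 22. In IMR32, 9 were called with ASO1 (4 higher, 5 lower), beside 28% of all tested genes, and 9 with ASO2 (5 higher, 4 lower), beside 32.4%. NGP had 14 calls with ASO2 (10 higher, 4 lower), beside 58.7%, and 11 with ASO10 (6 higher, 5 lower), beside 54.4%, a share near that of all genes. SK-N-BE(2)c had 17 with ASO2 (11 higher, 6 lower), beside 67%, and 16 with ASO10 (8 higher, 8 lower), beside 58.9%. MTAP, which salvages the methylthioadenosine left over by SRM and SMS, was lower in all 6 comparisons. Its log2 fold changes were -0.19 and -0.16 with ASO1 and ASO2 in IMR32, -0.44 and -0.31 with ASO2 and ASO10 in NGP, and -0.80 and -0.74 in SK-N-BE(2)c. The adjusted p from limma was at most 0.0253. Its mean normalized count in SK-N-BE(2)c was 632 ± 29.1 (SD, n = 3) with NCA, 363 ± 22.6 with ASO2 and 380.0 ± 38.3 with ASO10. MTAP was named because it was called with 1 sign in all 6 comparisons. The share of all genes with such a pattern was not computed.

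**Figure D4:**
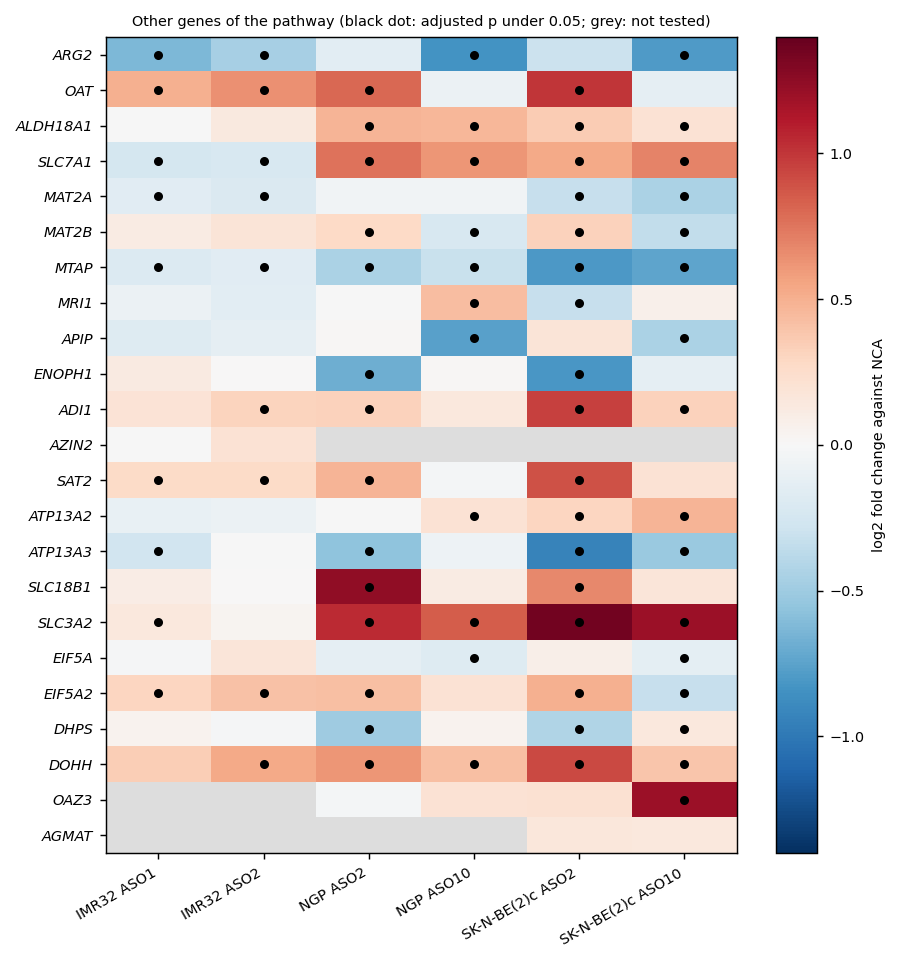
Log2 fold change against NCA (colour) of the other genes of the pathway (rows) in the 6 comparisons (columns), with black dots where the limma adjusted p is under 0.05 and grey where a gene was below the filter. MTAP is blue with a dot in every column.

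Transport genes moved in both directions. SLC3A2, the heavy chain of amino acid exchangers that has also been tied to polyamine transport, rose in NGP by 1.05 with ASO2 and 0.85 with ASO10, and in SK-N-BE(2)c by 1.35 and 1.19, with limma adjusted p of at most 3.63e-11. In IMR32 it rose by 0.14 with ASO1 and was at 0.04 with ASO2 (adjusted p 0.593). SLC18B1, a vesicular polyamine carrier, rose by 1.24 with ASO2 in NGP, from a mean normalized count of 10.4 ± 2.07 to 26.5 ± 8.93 (SD, n = 3). ATP13A3, a polyamine-transporting ATPase named here after its values were seen, was lower in 4 of 6 comparisons, by -0.27 with ASO1 in IMR32, -0.56 with ASO2 in NGP, and -0.93 with ASO2 and -0.52 with ASO10 in SK-N-BE(2)c. The largest adjusted p of these 4, from limma, was 0.000197. Among the genes of ornithine and arginine supply, OAT, which links ornithine with glutamate, rose with ASO1 and ASO2 in IMR32 (0.49 and 0.64) and with ASO2 in NGP (0.81) and SK-N-BE(2)c (1.00). With ASO10 it was at -0.08 and -0.13 (adjusted p 0.38 and 0.0836). ARG2, the mitochondrial arginase that makes ornithine, fell in IMR32 (-0.63 and -0.46) and with ASO10 in SK-N-BE(2)c (-0.79) and NGP (-0.84). DOHH, which completes hypusine, the spermidine-derived residue of EIF5A, rose in 5 of 6 comparisons, by 0.53 with ASO2 in IMR32 and up to 0.93 in SK-N-BE(2)c. OAZ3, an antizyme known from testis, was called higher with ASO10 in SK-N-BE(2)c, at 1.20 from a mean of 9.44 ± 5.23 to 21.3 ± 4.54. Its control libraries held 5 to 15 reads, and its mean with ASO2 was 10.5, close to the filter of 10. The ASO10 libraries in which it is high also helped it pass that filter, so the call is a description only.

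Genes with the most similar pattern were sought over the 30 libraries, on log2 values centred within each line, among 11594 genes tested in all lines. These correlations are descriptions, since the libraries share groups and scaling. ODC1 was most like STAU1 (Pearson r 0.92), PARP1 (0.92) and RPS3A (0.92). SAT1 was most like HEXIM1 (0.93), ENC1 (0.92) and SAP18 (0.91). SMOX was most like OAZ2 (0.88), itself one of the set, then PNP (0.88) and PPP1R18 (0.88).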

How the data were processed

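RNA sequencing of 30 libraries in 9 groups was used. Per the submitters' processing notes, the tools were FastQC 0.11.8, cutadapt 1.18, STAR 2.6.0, HTSeq 0.6.1 and DESeq2 1.42.0, with hg19/GRCh37 as build, in no stated order or role. Per the labels' protocols, a stranded total RNA kit (paired reads) or a stranded mRNA kit (single reads) was used. The authors deposited 1 table of normalized gene counts per line, treated here as a signal (counts over a size factor). Its steps gave back whole reads for 100% of values (within 0.1 of a whole number). In IMR32, 174 entries that name no gene, 0.172% of all values, were left out, and 0 sample columns were unused.

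Log2(value + 1) was fitted with limma 3.58.1 in R 4.3.3 (trend, 1 mean per group), per line and jointly for NGP and SK-N-BE(2)c. Genes with a mean of at least 10 were tested: 17309 in IMR32, 14440 in NGP, 13556 in SK-N-BE(2)c and 14537 jointly. P-values were adjusted by Benjamini-Hochberg over these. The code was tested on simulated data. Alternatives used edgeR 4.0.16 and DESeq2 1.42.0 on the recovered reads, other filters, scaling and pseudocounts, a replicate block and leave-one-out fits. The 10 genes and all lists were chosen with earlier results of these data known. Named beyond them are pathway genes called with 1 sign in all 6 comparisons with NCA, the 2 with the largest called change in each, and the 3 genes most like ODC1, SAT1 and SMOX. Promoters come from RefSeq (GRCh38.p14), which matched 7 of the 10 genes, and exon lengths from GENCODE 29.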

Additional observations from a re-analysis of the deposited data

Results flagged for a closer look

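In IMR32, 1 library stood apart from the other 3 of its group for 5 genes, by Dixon's test, which chance alone meets in about 1 group in 20. The test was applied to each of the 10 genes in each IMR32 group. Groups of the other lines, with 3 libraries each, were not put to it. With ASO1, replicate 1 had the highest normalized count of ODC1 (4567, next 3897), AMD1 (1740.3, next 1544) and AZIN1 (2226, next 1868). The control's replicate 1 was highest for OAZ1 (1307, next 1147). PAOX reached 13.3 in ASO1 replicate 3, with 3.34 next.

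Between NGP and SK-N-BE(2)c, the limma test of the difference in effect passed for ODC1 with ASO2 (log2 difference -0.28, adjusted p 0.0141, a smaller rise in NGP) and for AZIN1 with ASO10 (0.34, adjusted p 0.00464, a larger rise in NGP).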

How the results depend on the processing

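No change of sign was seen for a called gene under any alternative run. With edgeR and with DESeq2 on recovered reads, 1 of 108 gene results changed its call (SRM with ASO10 in SK-N-BE(2)c). Asking also for a fold of at least 1.5 left 1 gene with ASO1 against NCA, 1 with ASO2 against NCA and 0 between the ASOs in IMR32. In NGP it left 4, 3 and 2 for ASO2, ASO10 and ASO2 against ASO10, and in SK-N-BE(2)c 4, 1 and 3. It left 2 between the control groups of these lines and 0 for either difference of effects. Rescaling to equal totals left 0 genes for the ASO2 difference (ODC1 -0.21, adjusted p 0.0597). Over all genes it moved the share of calls that were higher from 50.2% to 38.4% for ASO2 in SK-N-BE(2)c, from 52.9% to 42.3% for ASO2 against ASO10 there, from 41.8% to 59.8% for ASO1 against ASO2 in IMR32 and from 47.5% to 67.1% for the ASO2 difference.

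Leaving out 1 library at a time gave 4 to 4 called genes for ASO1 and, with the added fit without replicate 1 of every group (9 genes), 4 to 9 for ASO2 in IMR32, the lowest without NCA replicate 4. It gave 1 to 7 between these ASOs, with 1 without ASO1 replicate 2 or 3 or ASO2 replicate 2, and 7 without ASO1 replicate 1 or without replicate 1 of every group. In NGP the counts were 8 to 9 for ASO2, 5 to 7 for ASO10 and 5 to 7 between them, and in SK-N-BE(2)c 9 to 9, 4 to 7 (4 without NCA replicate 2) and 6 to 7. Between the controls 5 to 6 were called, for the ASO2 difference 1 to 2 (2 without NGP ASO2 replicate 3 or SK-N-BE(2)c NCA replicate 3) and for the ASO10 difference 1 to 1.

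No pair of groups had same-numbered libraries that all deviated together (correlation over 0.1 for every number), so the numbers were not taken as pairs. With a replicate block, 7 genes (1 higher, 6 lower) were called between ASO1 and ASO2 in IMR32 in place of 3, adding AMD1 (-0.13, adjusted p 0.00328), SMS (-0.20, 0.000117), OAZ1 (-0.13, 0.00737) and AZIN1 (-0.10, 0.0199). The block also added calls for SMS (0.16, adjusted p 0.000888) and SRM (0.18, 0.0103) with ASO2 and AZIN1 (0.12, 0.00678) with ASO1 against NCA in IMR32, and for OAZ1 (0.10, 0.0482) between ASO2 and ASO10 in SK-N-BE(2)c, and ended none. Of the 4 libraries of a group in IMR32, 2 correlated best with their own number in each pair of groups. There 2 of the 4 same-numbered correlations were over 0.1 in each pair, and the highest was 0.33. For ASO10 and NCA in NGP, 2 of 3 were over 0.1, the highest was 0.12, and 2 libraries correlated best with their own number. A likeness of only some numbers was not modelled in the main fits. The other counts of called genes stayed within 1.5 times. SAT1, SMOX and PAOX had fewer reads than the other genes of the set in every library, at most 287, 184 and 14, which limits what could be seen for them.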
